A study of Homo sapiens with 4 samples.

Results

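The enzymes examined here keep protein thiols and peroxides in check: the glutathione system, the thioredoxins and their partners, the peroxiredoxins, the superoxide dismutases and catalase, leaving out enzymes that carry selenocysteine. Their 40 genes were listed by name, and every transcript annotated to one of them was taken, which gave 332 of the 227368 transcripts in the deposited count table. The RNA came from H1299, an established human line from a non-small-cell lung carcinoma, harvested at 48 h. One group received 5 μM HgCl2, the other the ethanol solvent alone (EtOH) according to the methods of the study, whereas the treatment text of the labels gives 5 μM HgCl2 for all samples. Each group has 2 columns of counts, labelled as replicates 1 and 2, of cells from the same line.

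Glutathione is the most abundant small thiol of the cell, and mercuric ions bind thiols tightly. Glutathione is made from glutamate, cysteine and glycine, is kept reduced by glutathione reductase, and is joined to foreign or oxidized molecules by the glutathione transferases. Thioredoxins and glutaredoxins reduce disulfides in proteins, peroxiredoxins remove peroxides through a reactive cysteine, superoxide dismutases turn superoxide into hydrogen peroxide, and catalase breaks hydrogen peroxide down.

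The columns of a group were compared first. Where a transcript's columns added up to 20 counts or more, their difference had 0.505 times the variance that counting noise alone gives to independent samples in EtOH (95% confidence interval 0.492 to 0.517, 12382 transcripts) and 0.516 times in HgCl2 (0.503 to 0.530, 10611 transcripts). For the transcripts of the 40 genes these ratios were 0.537 (0.335 to 0.994) and 0.608 (0.380 to 1.13), over 27 transcripts each. Over the whole table the columns within a group thus lay closer together than sampling noise, so each group stands for 1 sample here, given by the mean of its columns. Where both columns of a group are said to lie higher or lower, this describes the counts and is no replicate support. A comparison of the groups sets a single sample against a single sample, without a replicate check and without a test, and the 95% confidence interval (Clopper-Pearson, from the mean counts) covers counting error only. "At least 2-fold" refers to the log2 fold change of HgCl2 over EtOH, fitted with edgeR over the 17547 transcripts with a mean above 1 FPKM (fragments per kilobase of transcript, scaled for depth) in at least one group.

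The column totals were between 4720978 and 5053120 counts, of which the 332 transcripts held 0.126% to 0.144%. Of the markers chosen for this line, VIM (501 to 628 counts) and NRAS (5305 to 6213) were present and TERT was at 0. CDH1, EPCAM and SFTPC were at 0 and NKX2-1 at 0 to 2. The blood cell genes PTPRC, CD3E and HBB were at 0. The keratin KRT8 had 53 and 58 counts in EtOH and 4 in both HgCl2 columns, and KRT18 had 18 to 31 in all. COL1A1, a fibroblast marker, had 13 and 18 counts in EtOH and 3 and 4 in HgCl2, COL3A1 had 0 to 2 and the endothelial PECAM1 1 to 5. The part of these genes' cells in the results was not tested.

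Counts sat only on some of the annotated transcripts. Own bases of a transcript are those that no other listed transcript covers on the same strand. All 79 of the 332 transcripts with any count were among the 192 with own bases, and none of the 140 without own bases had a count. TXNDC17-201 shows the role of strand: it has no base of its own once the opposite strand (MED31) is considered and 1112 on its own strand, and it held 59 to 71 counts. The counting options, strand among them, are not given in the sources used here, so reads of MED31 may be among them.

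**Figure D1:**
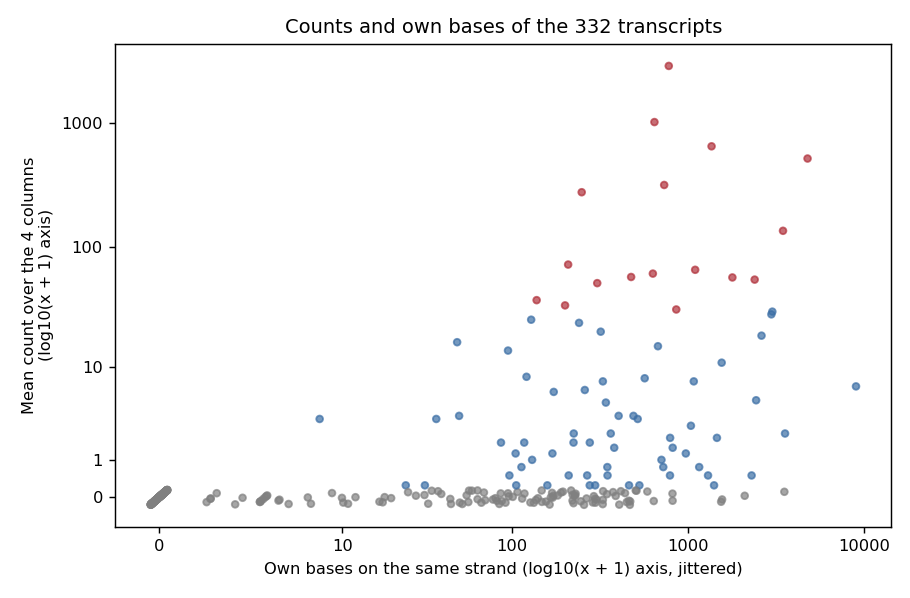
Mean count over the 4 columns (y axis, log10(x + 1)) against own bases on the same strand (x axis, log10(x + 1)), with points shifted slightly along x, and along y at 0, for the 332 transcripts. Red points have a mean of at least 30 counts, blue points a lower count and grey points 0; the 140 transcripts without own bases all lie at 0.

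A count of 0 could not be read as a silent gene. GSTP1, PRDX1, PRDX2, TXNIP, GSTM1, GSTM3, GSTO1 and GGT1 had 0 counts in every column over 69 transcripts, although each has a transcript with 182 to 1649 own bases. GAPDH and ACTB, which nearly every cell uses, were at 0 or at most 3 counts as well. A further 10 genes (GGCT, GLRX5, GPX7, GSTCD, GSTK1, GSTM4, GSTT2B, GSTZ1, MGST2 and PRDX5) stayed under 10 counts in every column. GSTM1, GSTM2 and GSTM4 are close copies of each other, so reads could be split or lost between them.

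Of the 332 transcripts, 40 from 21 genes passed the FPKM filter, 24 of them in both groups, 9 through EtOH alone and 7 through HgCl2 alone. Since a transcript that passes through its higher group has to differ, directions are counted over the 17 transcripts, from 13 genes, whose counts averaged at least 30 over all 4 columns, called well counted here; all 17 passed the filter in both groups. Of these 17, 3 were at least 2-fold higher in HgCl2 (PRDX6-203, GLRX3-201 and PRDX3-203), against 15.5% of all 7107 well-counted transcripts. One of the 17, GLRX3-202, was at least 2-fold lower, against 9.53% of the 7107. Those shares of the 17, 17.6% and 5.88%, are near the background. The background differs by annotation class. Of all well-counted transcripts, 9.48% of protein-coding ones were at least 2-fold higher, 32.5% of retained introns and 28.0% without a defined coding sequence. Of the 17, this held for 1 of 11 protein-coding transcripts, the 1 retained intron and 1 of 4 without a defined coding sequence. Among the 6 with at least 200 counts, 1 was higher and 0 were lower, where 4.65% and 2.03% of all such transcripts were. The median log2 fold change was 0.23 over the 17 and 0.21 over the 7107.

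Because the median of all well-counted transcripts was not at 0, and moved between 0.03 and 0.38 over 14 alternative settings (0.16 to 0.25 with another normalization alone), differences are also given relative to it, as relative log2 fold changes. By their counting intervals, 4 of the 17 lay above that median and 6 below it, against 32.4% and 34.1% of the 7107, and 7 spanned it. The 4 above were PRDX6-203, GLRX3-201, PRDX3-203 and CHAC2-201. The 6 below were GLRX3-202, TXNL1-201, TXN2-202, GSR-201, CAT-201 and PRDX3-201, which are the most counted transcript of their gene except for GLRX3-202.

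**Figure D2:**
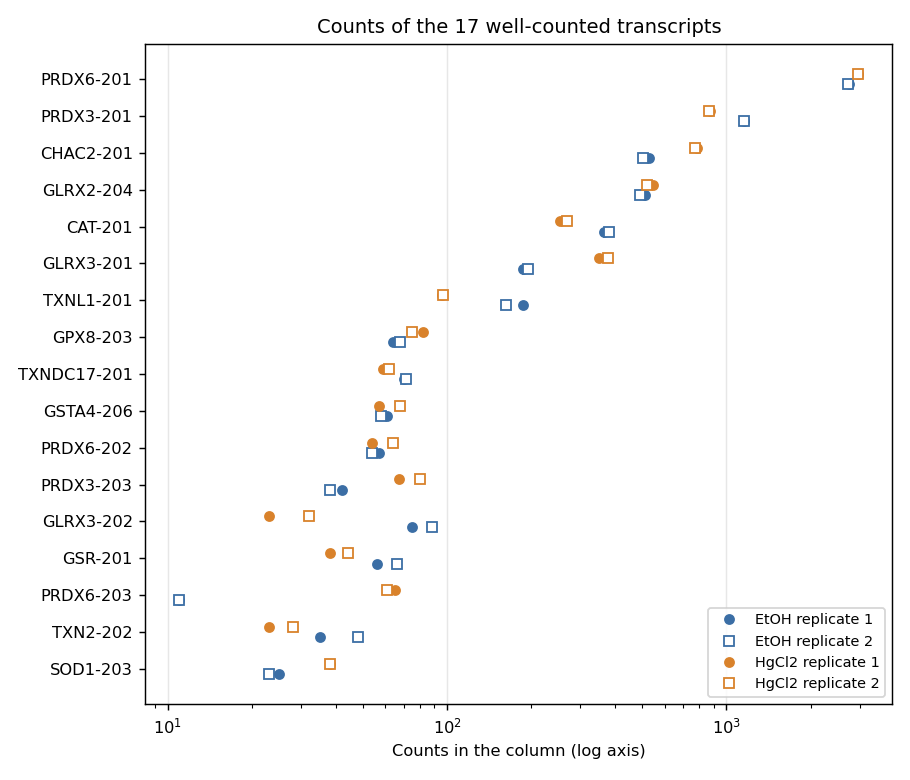
Counts in each column (x axis, log scale) of the 17 well-counted transcripts, EtOH in blue and HgCl2 in orange, with filled circles for replicate 1 and open squares for replicate 2. PRDX6-201 is highest, between 2734 and 2969 counts; PRDX6-203 has 11 counts in both EtOH columns and 61 and 65 in HgCl2.

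**Figure D3:**
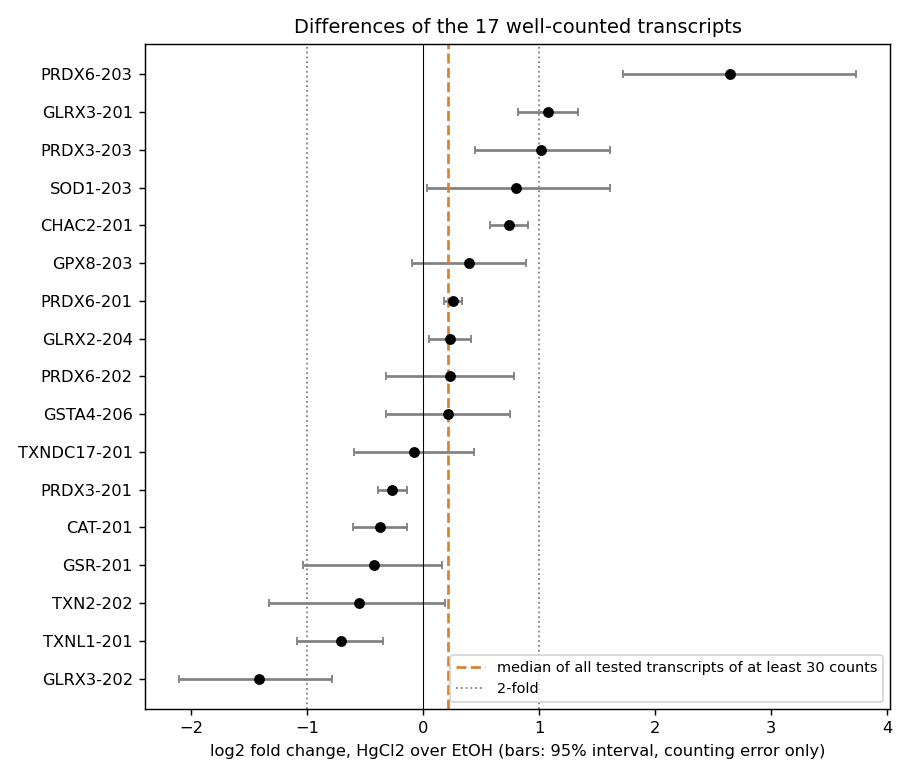
Log2 fold change of HgCl2 over EtOH (x axis) for the same 17 transcripts; bars are 95% intervals of counting error, the dashed line is the median of all 7107 well-counted transcripts (0.21) and the dotted lines mark 2-fold. PRDX6-203 (2.65) and GLRX3-202 (-1.42) are the ends of the range.

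Among the enzymes that make and turn over glutathione, CHAC2, a cytosolic enzyme that cleaves glutathione into 5-oxoproline and cysteinylglycine, was higher in HgCl2. Its single listed transcript, CHAC2-201 (ENST00000295304, chr2:53767804-53775196, plus strand of GRCh38), owns all of its 1309 bases, 552 of them coding. It had 528 and 504 counts in EtOH and 787 and 770 in HgCl2. The HgCl2 columns lay above both EtOH columns, with a log2 fold change of 0.74 (0.57 to 0.90), a relative value of 0.53 (0.36 to 0.69) and a fold of 1.67, short of 2-fold.

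GSR, the glutathione reductase that restores glutathione from its disulfide with NADPH, was counted only on GSR-201 (ENST00000221130), with own bases in its UTRs alone. It had 56 and 66 counts in EtOH and 38 and 44 in HgCl2. The log2 fold change was -0.43 (-1.04 to 0.17), and the relative value -0.64 (-1.25 to -0.05).

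Of GSS, the synthetase of the second step of glutathione synthesis, no coding transcript had a count, and in HgCl2 nearly all counts were on a retained intron. GSS-206 (ENST00000643203, chr20:34951482-34955808, minus strand) had 0 counts in both EtOH columns and 47 and 49 in HgCl2. Against a limit of 3 counts for the group it was at least 17.7-fold higher, and the lower end of the counting interval, which also holds the error of the HgCl2 count, was 13.8-fold. Its mean of 24.0 counts leaves it short of well counted, and it passed the FPKM filter through HgCl2 alone, which fixed its direction. Of all 2265 retained introns with a mean of at least 10 counts, 33.9% were at least 2-fold higher. Over all transcripts GSS had 10 and 9 counts in EtOH and 48 and 52 in HgCl2.

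The glutathione transferases, which join glutathione to electrophiles, left few counts. GSTA4-206 (ENST00000486559, chr6:52977948-52988002, minus strand), a transcript without a defined coding sequence, was the only well-counted one and had 61 and 58 counts in EtOH and 57 and 68 in HgCl2. Unscaled, these counts overlapped, and its log2 fold change of 0.21 (-0.32 to 0.75) was at the median of all transcripts. Its relative sign turned in 5 of the 14 alternative settings. GPX8-203 (ENST00000503787, chr5:55160171-55167297, plus strand) belongs to a peroxidase of the endoplasmic reticulum that uses cysteine. It had 64 and 68 counts in EtOH and 82 and 75 in HgCl2, with a log2 fold change of 0.39 (-0.10 to 0.89).

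Glutaredoxins are small disulfide reductases that draw their electrons from glutathione, and some of them carry iron-sulfur clusters. GLRX3, a cytosolic monothiol glutaredoxin of that kind, had 2 well-counted transcripts that differed at least 2-fold in opposite directions. They share their coding exons and stop codon, and apart from 8 more bases at the start of GLRX3-201 they differ behind it. GLRX3-201 (ENST00000331244, chr10:130136391-130179672, plus strand) runs on in the same exon and ends after 252 own bases. GLRX3-202 (ENST00000368644, chr10:130136399-130182881) splices to a further exon, ends downstream and has 2499 own bases. Their final 30 bases are shown since these ends tell the transcripts apart, with a poly(A) signal (AATAAA or ATTAAA) in capitals.
GLRX3-201, chr10:130179643-130179672: ATTAAAcatacagctactataattaaccca
GLRX3-202, chr10:130182852-130182881: ggttcagttgccttgcccacgtgtgactta
Such a signal stands in the last 30 bases of 41.1% of the 80597 listed protein-coding transcripts, and its absence here says only that these letters are not in this window.

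GLRX3-201, the transcript with the near end, had 187 and 194 counts in EtOH and 351 and 376 in HgCl2. It was higher in both HgCl2 columns, with a log2 fold change of 1.08 (0.82 to 1.34) and a relative value of 0.86 (0.61 to 1.13). GLRX3-202, with the far end, had 75 and 88 counts in EtOH and 23 and 32 in HgCl2. It was lower in both HgCl2 columns, with a log2 fold change of -1.42 (-2.10 to -0.78). Each of them passed 2-fold in 13 of the 14 alternative settings. The far-end transcript held 29.7% of the counts of GLRX3 in EtOH (Wilson 95% confidence interval 24.6% to 35.4%) and 6.96% in HgCl2 (4.84% to 9.91%). This share does not depend on the scaling between columns. It is a share of counts and not of molecules, since the 2 transcripts differ in own bases. Per kilobase of own bases, the mean counts over the 4 columns were 1065 for GLRX3-201 and 21.8 for GLRX3-202. Among all 826 genes with at least 2 well-counted transcripts, 3.63% had one at least 2-fold higher and another at least 2-fold lower, as GLRX3 had. Summed over its transcripts, GLRX3 had 264 and 284 counts in EtOH and 377 and 413 in HgCl2, with a log2 fold change of 0.67 (0.44 to 0.89).

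GLRX2, a mitochondrial glutaredoxin, was counted only on GLRX2-204 (ENST00000608166, chr1:193090866-193105433, minus strand). The annotation classes this transcript under nonsense-mediated decay, and its end overlaps RO60 on the other strand, whose reads cannot be told apart there where counting ignores strand. It had 509 and 492 counts in EtOH and 545 and 520 in HgCl2, and its log2 fold change of 0.23 (0.05 to 0.41) was 0.02 above the median of all transcripts. For GLRX, the cytosolic dithiol glutaredoxin, the counts lay mostly on the retained intron GLRX-204 (ENST00000507412), with 10 and 16 counts in EtOH and 44 and 43 in HgCl2. GLRX-204 passed the FPKM filter through HgCl2 alone, which fixed its direction. The coding GLRX-201 (ENST00000237858) had 7 counts in both EtOH columns and 9 and 10 in HgCl2. The sum for GLRX was thus at least 2-fold higher (1.04 on the log2 scale), and with protein-coding transcripts alone it was -0.15.

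Thioredoxin itself, TXN, had 10 and 12 counts in EtOH and 15 and 19 in HgCl2 on TXN-202 (ENST00000374517), too few to be well counted. TXN2, the thioredoxin of mitochondria, had 35 and 48 counts in EtOH and 23 and 28 in HgCl2 on TXN2-202 (ENST00000403313, chr22:36467591-36481340, minus strand), on 198 own bases of its 5' UTR. Its log2 fold change was -0.56 (-1.33 to 0.19). TXNDC17, a cytosolic relative that reduces disulfides, had 70 and 71 counts in EtOH and 59 and 62 in HgCl2 on TXNDC17-201 (ENST00000250101, chr17:6641060-6644541, plus strand), with a log2 fold change of -0.08 (-0.60 to 0.44), whose sign turned in 3 of the 14 alternative settings.

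TXNL1, a thioredoxin-like protein bound to the proteasome, again had transcripts with different ends. TXNL1-201 (ENST00000217515, chr18:56597209-56638592, minus strand) reaches the far end and had 187 and 162 counts in EtOH and 96 and 97 in HgCl2. It was lower in both HgCl2 columns, with a log2 fold change of -0.71 (-1.09 to -0.34) and a relative value of -0.92 (-1.30 to -0.55). TXNL1-204 (ENST00000586262, chr18:56608279-56638427) stops earlier in the gene, within what is an intron of TXNL1-201. It had 9 and 12 counts in EtOH and 44 and 54 in HgCl2, a log2 fold change of 2.35 (1.39 to 3.48), from a mean of 29.8 counts, just under the limit. The near-end transcript held 5.56% of the counts of TXNL1 in EtOH (Wilson interval 3.09% to 9.79%) and 32.9% in HgCl2 (25.9% to 40.8%). Their last 30 bases are given for comparison with those of GLRX3, with the same signals in capitals; here the far end is the one with the signal.
TXNL1-201, chr18:56597209-56597238: gaagttgtcATTAAAggatcttatcaggtg
TXNL1-204, chr18:56608279-56608308: attgtacaaagtaacaacttcaatgtagtt

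The peroxiredoxins held most of the counts: PRDX6 and PRDX3 together made up between 59.3% and 62.7% of the counts of the 40 genes. In levels per length, PRDX6-201 had the highest mean FPKM of the well-counted transcripts, 295 in EtOH and 399 in HgCl2, followed in the order of EtOH by PRDX3-201 with 135 and 127, CHAC2-201 with 71.8 and 135, CAT-201 with 29.6 and 25.9 and GLRX3-201 with 26.3 and 62.7. In HgCl2, CHAC2-201 stood above PRDX3-201 and GLRX3-201 above CAT-201. The deposited FPKM divides by the whole transcript. Per kilobase of own bases, the mean counts were 3566 for PRDX6-201, 1553 for PRDX3-201, 1065 for GLRX3-201, 494 for CHAC2-201 and 423 for CAT-201, so that GLRX3-201 passed CHAC2-201.

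PRDX6, the peroxiredoxin with a single reactive cysteine that also acts on phospholipids, had 2750 and 2734 counts in EtOH and 2957 and 2969 in HgCl2 on PRDX6-201 (ENST00000340385, chr1:173477335-173488815, plus strand). All of its 800 own bases are in the 3' UTR. Its log2 fold change of 0.26 (0.18 to 0.33) was 0.05 above the median of all transcripts, with a relative interval of -0.03 to 0.12. PRDX6-202 (ENST00000460950), without a defined coding sequence, had 57 and 54 counts in EtOH and 54 and 64 in HgCl2, and these unscaled counts overlapped.

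PRDX6-203 (ENST00000470017, chr1:173481199-173488015) had 11 counts in both EtOH columns and 65 and 61 in HgCl2, the largest difference among the 17, with a log2 fold change of 2.65 (1.73 to 3.73) and a fold of 6.26. Its share of the counts of PRDX6 was 0.392% in EtOH (Wilson interval 0.219% to 0.700%) and 2.04% in HgCl2 (1.60% to 2.60%). It starts inside the first intron of PRDX6-201, and its 127 own bases are that intronic stretch, followed by the second exon of PRDX6-201.

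PRDX3, the peroxiredoxin of mitochondria, was lower in HgCl2 on its main transcript and higher on a retained intron. Of all 1059 well-counted retained introns, 32.5% were at least 2-fold higher, so such a rise is not particular to PRDX3. PRDX3-201 (ENST00000298510, chr10:119167720-119178812, minus strand) had 1152 and 1158 counts in EtOH and 872 and 868 in HgCl2, on 652 own bases of which 281 are coding. The log2 fold change was -0.27 (-0.39 to -0.14) and the relative value -0.48 (-0.60 to -0.35). PRDX3-203 (ENST00000494433, chr10:119168069-119170988) had 42 and 38 counts in EtOH and 67 and 80 in HgCl2, with a log2 fold change of 1.02 (0.45 to 1.61). It was at least 2-fold higher in 7 of the 14 alternative settings. Its share of the counts of PRDX3 was 3.32% in EtOH (2.45% to 4.48%) and 7.78% in HgCl2 (6.24% to 9.67%). PRDX3-203 also begins within an intron and runs into the exon that follows. The last 100 intronic own bases of both transcripts are shown, since reads on such bases make up their counts, with the first 20 bases of the exon in capitals.
PRDX6-203, chr1:173481226-173481345, plus strand: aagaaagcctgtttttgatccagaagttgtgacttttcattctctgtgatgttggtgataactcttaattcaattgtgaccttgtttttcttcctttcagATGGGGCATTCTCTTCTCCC
PRDX3-203, chr10:119169323-119169442, minus strand: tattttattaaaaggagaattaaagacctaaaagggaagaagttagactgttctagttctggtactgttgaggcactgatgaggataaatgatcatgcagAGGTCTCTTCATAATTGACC
In both sequences the intronic part ends in the bases ag, as introns do.

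SOD1, the copper and zinc superoxide dismutase of the cytosol, was counted on SOD1-203 (ENST00000470944, chr21:31659709-31668931, plus strand), a transcript without a defined coding sequence, with 25 and 23 counts in EtOH and 38 in both HgCl2 columns. Its log2 fold change was 0.80 (0.03 to 1.61) and its relative interval, -0.18 to 1.40, spanned the median of all transcripts. SOD2, the manganese enzyme of mitochondria, had 17 and 13 counts in EtOH and 4 in both HgCl2 columns over 15 transcripts, too few to be well counted. CAT, catalase, had 364 and 381 counts in EtOH and 254 and 268 in HgCl2 on CAT-201 (ENST00000241052, chr11:34438934-34472060, plus strand). It was lower in both HgCl2 columns, with a log2 fold change of -0.37 (-0.60 to -0.14) and a relative value of -0.58 (-0.81 to -0.35). Its nonsense-mediated decay transcript CAT-206 (ENST00000650153) had 10 and 13 counts in EtOH and 45 and 34 in HgCl2. Its share of the counts of CAT was 2.84% in EtOH (1.61% to 4.95%) and 13.0% in HgCl2 (9.70% to 17.3%).

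**Figure D4:**
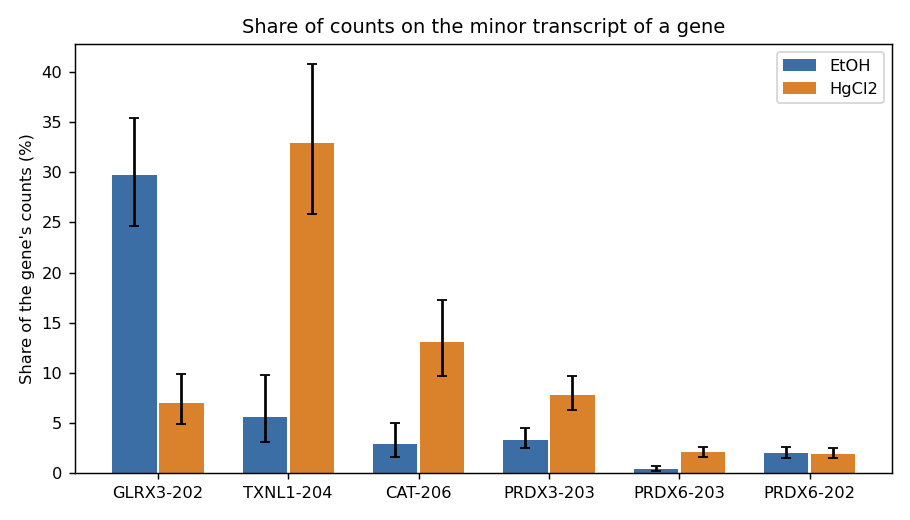
Share of a gene's counts (y axis, percent) on one of its less counted transcripts, in EtOH (blue) and HgCl2 (orange); bars are mean counts with Wilson 95% intervals of counting error. The share is 29.7% in EtOH and 6.96% in HgCl2 for GLRX3-202, is higher in HgCl2 for TXNL1-204, CAT-206, PRDX3-203 and PRDX6-203, and is 1.98% and 1.91% for PRDX6-202. Transcripts differ in own bases, so these are not shares of molecules.

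Opposite directions within a gene were common in the whole table. With at least 30 counts asked of a transcript, GLRX3 and PRDX3 of 3 genes (PRDX6 being the third) had transcripts on both sides of 0, against 47.6% of all 826 such genes.

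A further 10 transcripts of these genes had means of 10 to under 30 counts and were described after their values were seen. Of these, 9 were tested, 6 of them (GSS-206, GLRX-204, MGST1-203 and GSTM2-213 among them) because they passed the FPKM filter through HgCl2 alone. The direction of those 6 was fixed by the filter, so no count of directions is given here. Besides GSS-206, GLRX-204, TXNL1-204, CAT-206 and TXN-202, described above, they were PRDX4-201, MGST1-203, GSTM2-213, MGST3-208 and MGST3-213. PRDX4-201 (ENST00000379331), the coding transcript of the peroxiredoxin of the endoplasmic reticulum, had 6 and 7 counts in EtOH and 28 and 40 in HgCl2. MGST1-203 (ENST00000396207), a coding transcript of a membrane-bound glutathione transferase, had 2 and 0 counts in EtOH and 32 in both HgCl2 columns. The retained intron GSTM2-213 (ENST00000496578) had 1 count in both EtOH columns and 30 and 29 in HgCl2, a ratio of 32.6 with a counting interval of 5.41 to 1330. MGST3-208 (ENST00000461759), without a defined coding sequence, had 9 and 11 counts in EtOH and 28 and 27 in HgCl2. The retained intron MGST3-213, which did not pass the filter, had 10 and 9 counts in EtOH and 17 and 8 in HgCl2.

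**Figure D5:**
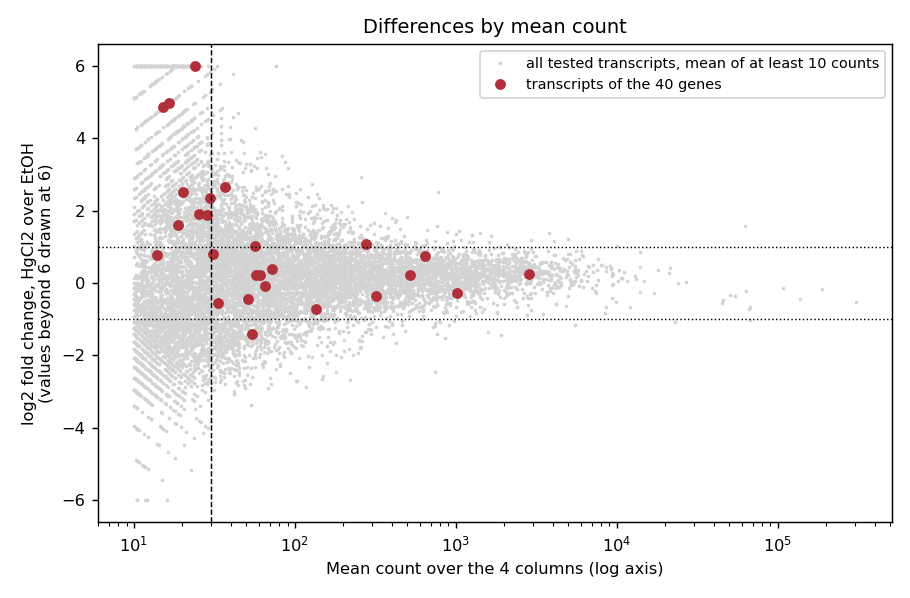
Log2 fold change of HgCl2 over EtOH (y axis, values beyond 6 drawn at 6) against the mean count over the 4 columns (x axis, log scale), for tested transcripts averaging 10 counts or more (grey) and those of the 40 genes (red). The dashed line marks 30 counts and the dotted lines 2-fold; 6 of the 9 red points left of the dashed line passed the FPKM filter through HgCl2 alone.

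Summed over all transcripts of a gene, 16 of the 40 genes had a mean of at least 30 counts. GLRX (1.04) and PRDX4 (1.10) were at least 2-fold higher and 0 were lower, where 11.0% and 9.56% of all 6399 such genes were higher and lower. Both calls rest on 1 column: GLRX was at 0.89 without EtOH replicate 1, and PRDX4 at 0.91 without HgCl2 replicate 2. The median log2 fold change of the 16 sums was 0.24, and 0.15 over all 6399. The sum for PRDX6 was 0.27 (0.20 to 0.35), and those for PRDX3 and CAT were -0.21 (-0.34 to -0.09) and -0.28 (-0.50 to -0.06).

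Around these enzymes stand the genes that supply cysteine and NADPH, the selenocysteine enzymes, and further thioredoxin-fold proteins, listed as 57 genes. Of their 18 well-counted transcripts, from 17 genes, 0 were at least 2-fold higher and 3 lower, again with 15.5% and 9.53% as background. SLC7A11-201, of the cystine importer that feeds glutathione synthesis, had 2890 and 2915 counts in EtOH and 3826 and 3820 in HgCl2, a log2 fold change of 0.54 (0.47 to 0.61). GCLM-201, of the modifier subunit of the enzyme for the first step of glutathione synthesis, had 721 and 700 and then 972 and 955, a log2 fold change of 0.58 (0.44 to 0.73). The catalytic subunit GCLC had only 20 to 29 counts over its transcripts, its most counted one, GCLC-205, having 16 counts in both EtOH columns and 9 in both HgCl2 columns, while TXNRD1 had at most 1 count and SRXN1 had 0. The lower 3 were PDIA3-201 and TXNDC16-201, of proteins with thioredoxin folds, and the retained intron SLC3A2-220. PDIA3-201 had 381 and 395 counts in EtOH and 116 in both HgCl2 columns (-1.60 on the log2 scale). TXNDC16-201 had 406 and 393, then 114 and 125 (-1.60), and SLC3A2-220 had 78 and 73, then 11 and 9 (-2.76).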

How the data were processed

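Poly-A RNA of H1299 cells was sequenced by the authors. Per the labels and the methods of the study, reads were trimmed with Trim Galore, aligned with STAR 2.5.4b to GRCh38 and counted per transcript with Rsubread; the counting options are not given in the sources used here. The authors deposited raw counts, not normalized, beside FPKM computed with DESeq2 1.26.0. Columns were assigned by group and replicate number in their names; the study describes independent replicates and directional libraries, while the labels name no separate cultures.

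Transcripts were matched by identifier to GENCODE 44 on GRCh38, a later release (223558 of 227368 found). edgeR 4.0.16 (glmQLFit, TMM, R 4.3.3) was fitted over 17547 transcripts. Since the columns of a group counted as 1 sample, its p-values were not used, unlike planned for independent columns. Calls rest on a mean of at least 30 counts and 2-fold. Fits were run on simulated independent columns with large known changes in few transcripts. Such columns vary more than those of a group here, so this checks the code and not the folds reported. Ratios against 1 to 3 counts are given with their counting interval, which replaces a planned lower bound. Intervals used scipy 1.17.1. Alternatives changed the normalization, tool (DESeq2 1.42.0), scale, filter, pseudocount, replicate block and columns.

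Members and lists were chosen with earlier results of these data known. Named are the most counted transcript of each gene, all well-counted transcripts that differ 2-fold or share a gene, genes at 0, and 2-fold pathway transcripts of at least 200 counts with GCLC, GCLM, SLC7A11, TXNRD1 and SRXN1. Others, among them all transcripts under 30 counts and SLC3A2-220, were named after their values were seen. Protein sequences were not used here.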

Additional observations from a re-analysis of the deposited data

How the results depend on the processing

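Of the 17 well-counted transcripts, 14 kept the sign of their relative log2 fold change in each of the 14 alternative settings. GSTA4-206, GLRX2-204 and PRDX6-202, all within 0.03 of the median, did not. Another normalization shifts a transcript and the median alike, so such settings could hardly turn this sign. Settings that leave out 1 column of a group are no replicate check either, as its columns count as 1 sample. The number at least 2-fold higher was 1 with at least 10 counts in every column, 1 with a mean of at least 100 counts, 5 at 1.5-fold and 11 with a mean of at least 10 counts, which also moved the median to 0.75 and adds 6 transcripts that passed the FPKM filter through HgCl2 alone. The number lower was 0 on log2(FPKM + 1), against 4.69% of all. It was 0 with a mean of at least 100 counts and 2 at 1.5-fold. Leaving out 1 column gave 2 to 3 higher, 1 lower and medians of 0.10 to 0.26. Over all transcripts 15.5% to 15.8% were then higher and 9.3% to 9.6% lower. Without EtOH replicate 2 or HgCl2 replicate 2 the number higher was 2 in place of 3. The replicate block gave 3 higher, 1 lower and a median of 0.23. Deviations of same-numbered columns had a correlation of 0.034 across transcripts. As the columns of a group lie closer together than counting noise, this value cannot tell whether same-numbered columns share a culture or batch. GLRX summed over protein-coding transcripts alone turned to -0.15, as its retained intron was then left out. On the column comparison, limits of 10 and 50 counts changed nothing beyond the interval. With 13.0 and 43.5 mean counts, as for GLRX-204, the counting interval of a fold spans 1.95 to 7.49, so depth limits every transcript under 30 counts.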
